A study of Mus musculus with 6 samples.

Results

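Wipf3, of the family of WASP-interacting proteins (WIP), and Shank2, of the Shank scaffold family, were described together with their paralogs Wipf1, Wipf2, Shank1 and Shank3 and with Was and Wasl, the genes of the WASP proteins that WIP proteins bind. Wipf3 and Shank2 were picked because they rose with GW4064, and the other 6 genes because they are relatives or partners. All 8 genes were found among the 22180 genes measured. They were taken from probe sets that the platform annotation pairs with exactly 1 gene symbol, which gave 9 probe sets, and only Shank3 had more than 1, of which the brighter was kept.

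The cells were wild-type primary hepatocytes of adult male C57Bl/6 mice in William's medium without serum. They received 2 µM GW4064, a drug-like compound that activates the bile acid receptor FXR, or only DMSO as solvent, for 4 h in both groups. The series design text names 3 independent preparations, and 3 arrays were measured per group. Whether a preparation pooled animals, and which array came from which preparation, is not given in the sources used here. Each value is a log2 intensity of a probe set on a 1-colour Affymetrix array after RMA, which makes the arrays comparable for 1 probe set but not the levels of different genes. The values ran from 0.94 to 13.07, and array medians lay within 0.053 of each other. Abcb11, the bile salt export pump gene and a textbook FXR target, rose 8.47-fold (limma adjusted p = 3.70e-05), and the FXR target Nr0b2, which encodes the repressor SHP, rose 5.18-fold (adjusted p = 1.17e-04). The hepatocyte marker Alb lay at 12.85 ± 0.04 with DMSO and 12.82 ± 0.02 with GW4064 (mean log2 intensity ± SD, n = 3 arrays).

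WASP proteins switch on the Arp2/3 complex, which starts branched actin filaments beneath membranes. WIP proteins bind actin and WASP proteins and keep the latter stable and in place. Wipf1 encodes WIP itself, Wipf2 encodes the relative also called WIRE, and Wipf3 encodes CR16, best known from brain and testis. Was encodes the WASP of blood cells and Wasl the widely expressed N-WASP. Shank proteins are large scaffolds that join membrane proteins to the actin skeleton. They are best known from the postsynaptic side of synapses, and Shank2 also has a form found at the apical membrane of epithelial cells.

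The sequence before the Wipf3 start is shown first because Wipf3 had the largest change of the 8 genes, with that of its relative Wipf2, which did not pass the test, for comparison. Both are the 250 bases before the start in the RefSeq promoter table (GRCm38.p6, plus strand, 5′ to 3′). The Wipf3 window is chr6:54429436-54429685 and the Wipf2 window is chr11:98863348-98863597. Capitals mark CpG dinucleotides.
Wipf3: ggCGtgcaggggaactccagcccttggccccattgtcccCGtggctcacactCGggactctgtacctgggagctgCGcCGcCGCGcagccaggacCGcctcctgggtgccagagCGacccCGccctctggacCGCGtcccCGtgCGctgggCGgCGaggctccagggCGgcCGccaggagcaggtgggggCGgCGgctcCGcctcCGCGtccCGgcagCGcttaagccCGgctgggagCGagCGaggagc
Wipf2: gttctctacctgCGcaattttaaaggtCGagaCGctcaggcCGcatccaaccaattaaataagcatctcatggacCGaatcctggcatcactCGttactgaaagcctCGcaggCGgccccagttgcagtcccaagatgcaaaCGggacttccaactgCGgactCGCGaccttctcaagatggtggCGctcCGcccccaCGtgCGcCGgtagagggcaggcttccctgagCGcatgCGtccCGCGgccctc
The Wipf3 window held 28 CpG dinucleotides and 76.0% G and C, and the Wipf2 window 21 and 59.6%. Among the other genes that did not pass the test, Wasl held 28 and 71.2%, Shank3 31 and 82.4%, and Was 4 and 53.6%. The Wipf1 windows held 29 and 75.6%, 3 and 44.8%, and 1 and 38.8%. A high count was thus not particular to Wipf3. The medians over all 32851 windows of the table were 6 and 52.4%.

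The table held 8 windows for 6 of the 8 genes, 3 of them for Wipf1, and no entry for Shank1 and Shank2. The inverted repeat AGGTCANTGACCT, the textbook FXR element and the same on both strands, was in none of the 8 windows at up to 2 mismatches, against 0.959% of all windows. Its repeat unit AGGTCA, or TGACCT on the other strand, which lies within the repeat, was in none of the 8, against 14.0% of all windows. This says only that these letters are not in the 250 bases searched.

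Wipf3 (probe set 17458723) lay at 4.75, 4.83 and 5.03 in DMSO replicates 1, 2 and 3 and at 6.24, 6.13 and 5.94 in GW4064 replicates 1, 2 and 3. The groups did not overlap, and the lowest GW4064 array stood 0.91 above the highest DMSO array. The means were 4.87 ± 0.14 and 6.10 ± 0.15 (log2 intensity ± SD, n = 3), a log2 change of 1.24 (SE 0.12) or 2.36-fold with a 95% interval of 1.96 to 2.83. In same-numbered pairs 1, 2 and 3 the log2 difference was 1.49, 1.30 and 0.91. Pair 3 had both the highest DMSO value and the lowest GW4064 value.

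Shank2 (probe set 17485389) lay at 5.45, 5.53 and 5.17 in DMSO replicates 1, 2 and 3 and at 6.29, 6.55 and 6.30 with GW4064. Here too all GW4064 arrays lay above all DMSO arrays, with a gap of 0.76. The means were 5.38 ± 0.19 and 6.38 ± 0.15 (n = 3), a log2 change of 0.99 (SE 0.12) or 1.99-fold with a 95% interval of 1.64 to 2.42. The pair differences were 0.84, 1.02 and 1.12. Pair 3, which gave Wipf3 its smallest difference, gave Shank2 its largest, and replicate 3 held the lowest Shank2 value with DMSO.

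These 2 genes were picked on this contrast, so their values are a description. The limma adjusted p they were picked on were 0.0166 for Wipf3 and 0.0451 for Shank2 over all 22180 genes, of which 11, or 0.0496%, rose. Ordered by log2 change, Wipf3 stood 10th and Shank2 16th from the top of all genes. With the replicate number as a block the adjusted p were 0.0488 and 0.0374, where 0.0721% of all genes rose. Both genes were higher in all 3 pairs, as were 12.6% of all genes. Both stand close to the threshold of 0.05. The Wipf3 change stayed between 1.17 and 1.32 with single arrays left out, and its adjusted p exceeded 0.05 without DMSO replicate 1 (0.0859), DMSO replicate 2 (0.0557), GW4064 replicate 1 (0.105) or GW4064 replicate 2 (0.0657). The Shank2 change stayed between 0.89 and 1.06, and its adjusted p lay between 0.0811 and 0.230 without any 1 of the 6 arrays.

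**Figure D1:**
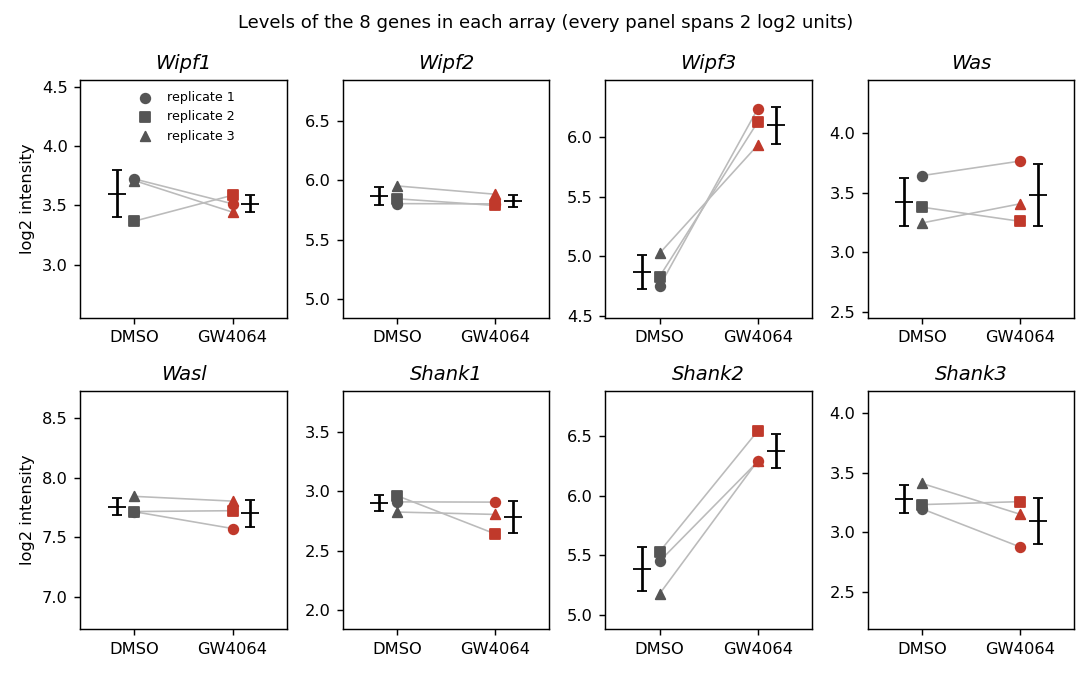
Log2 intensity of each gene (vertical axis, every panel spanning 2 log2 units) in DMSO arrays (grey) and GW4064 arrays (red). Marker shapes give the replicate number, thin lines join same-numbered arrays, and black bars give the mean ± SD of 3 arrays. The groups stand apart for Wipf3 and Shank2 and overlap for the other 6 genes.

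None of the other 6 genes passed the test. Their log2 changes ran from -0.19 to 0.05, their limma adjusted p from 0.962 to 0.998, and their DMSO and GW4064 arrays overlapped in each case, against 10.8% of all genes whose groups do not overlap. The 95% intervals of the 6 changes together ran from -0.46 to 0.40. Those of Wipf3 (0.97 to 1.50) and Shank2 (0.71 to 1.27) lay above. This follows from the choice of both genes on this contrast and was not tested. With the replicate block the highest of the 6 upper bounds was 0.27 and the smallest adjusted p was 0.624. The intervals leave room for small changes in either direction.

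Within the WIP family, Wipf2 (probe set 17256215) had the least spread. It lay at 5.80, 5.84 and 5.95 with DMSO and at 5.80, 5.79 and 5.88 with GW4064, a log2 change of -0.04 (95% interval -0.25 to 0.16). The groups overlap closely, although it was lower in all 3 pairs, as were 18.6% of all genes. Wipf1 (probe set 17386540) lay at 3.72, 3.37 and 3.71 with DMSO and at 3.51, 3.59 and 3.44 with GW4064. Its change was -0.09 (95% interval -0.35 to 0.18), with 1 pair higher and 2 lower. Set against these relatives in the same arrays, the Wipf3 change was larger by 1.32 than that of Wipf1 and by 1.28 than that of Wipf2, and in single pairs by 0.98 to 1.70. These differences follow from the choice of Wipf3 and were not tested.

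Of the WASP genes, Wasl (probe set 17465212) lay at 7.72, 7.72 and 7.84 with DMSO and at 7.57, 7.72 and 7.80 with GW4064. Its log2 change was -0.06 (95% interval -0.28 to 0.17), and GW4064 replicate 1 was the lowest array. Was (probe set 17539997), the blood cell gene, lay at 3.64, 3.38 and 3.25 with DMSO and at 3.77, 3.26 and 3.41 with GW4064. Its change was 0.05 (95% interval -0.29 to 0.40), and both replicate 1 arrays were its highest. Leaving out GW4064 replicate 1 turned the sign for both genes, to 0.005 for Wasl and -0.09 for Was, and that of Was also turned without DMSO replicate 3 (-0.03).

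The mean level of 12 haematopoietic and Kupffer cell markers lay between 4.31 and 4.42 in all 6 arrays. No probe set is at 0 on this scale, and there is no detection call. The mean level alone does not show whether such cells are present. Cd68, the brightest of them, was lowest in replicate 2 (8.53 with DMSO and 8.46 with GW4064) and between 9.63 and 10.02 in the other arrays. The lowest Was value (3.25), in DMSO replicate 3, fell on the array with the highest Cd68 value (10.02). The next lowest (3.26), in GW4064 replicate 2, fell on the array with the lowest Cd68 value (8.46). The highest Was value (3.77), in GW4064 replicate 1, had Cd68 at 9.86. These are single arrays and 1 marker. Cd68 was unlike most of the list, of which 9 of 12 lay below the median level of all genes. A part of such cells in the Was level was not tested, and in these bulk samples fewer cells of a type and less RNA per cell cannot be told apart.

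In the Shank family, Shank1 (probe set 17477428) lay at 2.91, 2.96 and 2.83 with DMSO and at 2.91, 2.64 and 2.81 with GW4064, a log2 change of -0.11 (95% interval -0.35 to 0.12). Most of it came from pair 2, with -0.32. Shank3 (probe set 17320553) lay at 3.20, 3.23 and 3.41 with DMSO and at 2.88, 3.26 and 3.15 with GW4064, a change of -0.19 (95% interval -0.46 to 0.09). Without GW4064 replicate 1, its lowest array, the change was -0.08, and without DMSO replicate 3, its highest, -0.12. The other Shank3 probe set (17314190) went from a mean of 3.18 to 3.16, a difference of -0.02, so the probe sets of this gene gave different sizes. The Shank2 change was larger than those of Shank1 and Shank3 by 1.11 and 1.18, which again follows from the choice of Shank2.

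Wipf1, Was, Shank1 and Shank3 lay below the median level of all genes. The table gives no detection call, so whether these 4 probe sets stand above background is unknown, and a change of a transcript that the probe set hardly sees would not show. Wipf2, Wipf3, Wasl and Shank2 lay above that median. The SD within groups was 0.15 for Wipf3 and 0.17 for Shank2, beside a median of 0.138 over all genes, and from 0.07 for Wipf2 to 0.23 for Was among the other 6.

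**Figure D2:**
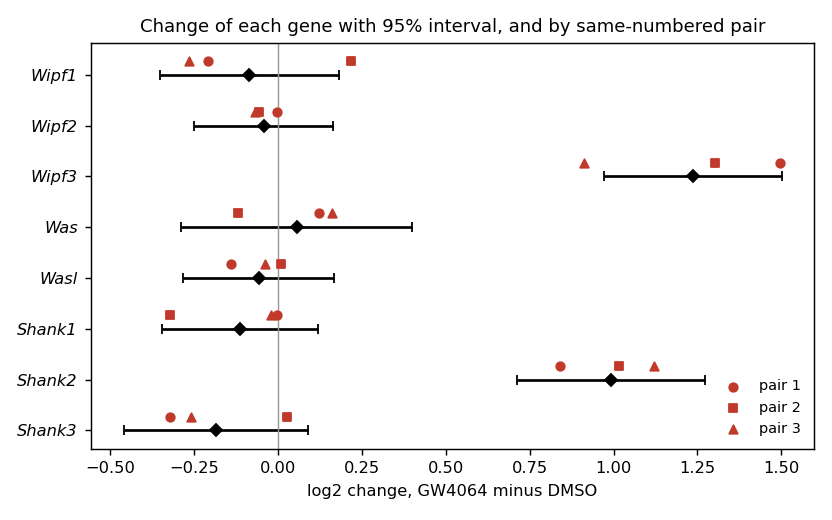
Log2 change of each gene, GW4064 minus DMSO (horizontal axis). Black diamonds and bars give the limma estimate from 3 against 3 arrays with its 95% interval, and red symbols give the difference in each same-numbered pair. Wipf3 and Shank2 lie at 1.24 and 0.99, and the intervals of the other 6 genes include 0.

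The partners with which WIP and WASP proteins work were next counted as a group. The list held 35 genes, mostly of the WAVE complex, the Arp2/3 complex and the adaptors that recruit or activate WASP proteins. It also held the Arp2/3 regulators Washc1, Whamm, Jmy and Arpin. Arpc1b, Arpc3, Actr2, Actr3b and Cyfip1 were not measured. Of the 30 that were, limma called none, either without or with the replicate block, where 0.0496% and 0.0812% of all genes were called. None had an unadjusted p under 0.05 either, against 5.66% of all genes. Their log2 changes ran from -0.15 to 0.13 with a median of -0.04, beside a median of -0.02 over all genes, and 10 of the 30 were above 0, beside 44.6% of all genes. The smallest p belonged to Nckap1l, the WAVE complex subunit of blood cells, with a change of 0.12 (SE 0.10, adjusted p = 0.980). Wasf3 and Wasf2, both WAVE genes, had 0.13 (SE 0.12) and -0.09 (SE 0.09).

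Of 21 listed binding partners of Shank proteins and neighbours in their scaffold, 20 were measured. Limma called none without or with the block, where 0.0496% and 0.0812% of all genes were called. At an unadjusted p under 0.05 there was 1 higher gene, against 2.6% of all genes. This was Baiap2, which encodes the membrane-bending adaptor IRSp53. Baiap2 lay at 8.56, 8.74 and 8.52 with DMSO and at 8.89, 8.88 and 8.79 with GW4064. All its GW4064 arrays were above its DMSO arrays, as for 4.58% of all genes, and its log2 change was 0.25 (SE 0.10, limma adjusted p of 0.858, or 0.480 with the block). Dlgap3, of the postsynaptic linker family that binds the Shank PDZ domain, had 0.22 (SE 0.13), and Cftr, the epithelial chloride channel gene, had -0.20 (SE 0.11) at a level of 2.29 ± 0.17 with DMSO, near the low end of the scale. The list's median was -0.02, and 9 of its 20 genes were above 0, a count that was 14 without GW4064 replicate 3.

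Of 36 genes of actin, its monomer-binding proteins, filament ends, crosslinkers and membrane links, 35 were measured. Limma called none without or with the block, where 0.0496% and 0.0812% of all genes were called. Pfn2, a profilin gene, had the smallest p. Its log2 change was -0.25 (SE 0.10, limma adjusted p of 0.858), and it was the 1 gene lower at an unadjusted p under 0.05, against 3.06% of all genes. Rdx, which encodes the membrane linker radixin of bile canaliculi, lay at 9.76, 9.73 and 9.75 with DMSO and at 9.67, 9.51 and 9.52 with GW4064. Its groups did not overlap, as for 6.19% of all genes in this direction, and its change was -0.18 (SE 0.09, adjusted p = 0.928). Myl12a, a myosin light chain gene, had the highest change of the list, 0.48, with an SE of 0.28 and pair differences of 0.59, -0.12 and 0.96. The list's median was -0.01, with 15 of 35 genes above 0, a count that was 8 without DMSO replicate 3, 7 without GW4064 replicate 1 and 24 without GW4064 replicate 3.

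**Figure D3:**
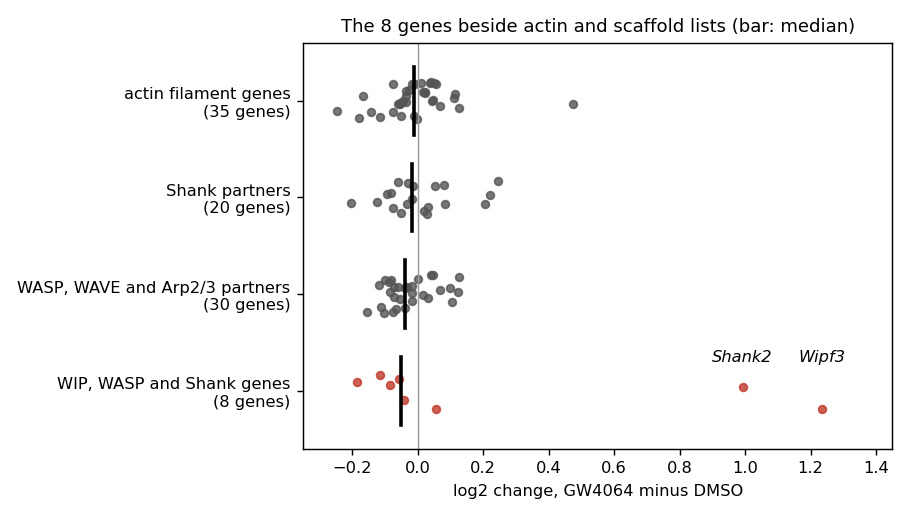
Log2 change, GW4064 minus DMSO (horizontal axis), of the 8 genes (red) and of the measured genes of 3 lists (grey), with black bars at the medians. Points are spread vertically for visibility. Wipf3 and Shank2, which were picked for their rise, lie to the right of every listed gene, the highest of which is Myl12a at 0.48.

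Genes with the most similar course over the 6 arrays were sought among 18210 protein-coding genes (predicted genes left out), after each gene was set to its own DMSO mean. Likeness was the root mean square difference over the 6 arrays, in log2 units, with a smaller value meaning more alike. The treatment difference on which both genes were picked makes up most of this measure, so it is given as a description.

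Closest to Wipf3 were B4galt5, a galactosyltransferase gene (0.139), Abcb4, which moves phosphatidylcholine into bile (0.167), and Glyctk, the glycerate kinase gene (0.208), where the median gene stood at 0.906. B4galt5 lay at 6.50, 6.70 and 6.63 with DMSO and at 7.96, 7.59 and 7.72 with GW4064. Like Wipf3 it was highest in GW4064 replicate 1, as were Abcb4 and Glyctk. Its highest DMSO value was in replicate 2, that of Wipf3 in replicate 3. Closest to Shank2 were the drug efflux pump gene Abcb1a (0.103), the mitochondrial carrier gene Slc25a47 (0.148) and the deubiquitinase gene Otud1 (0.157), with a median of 0.740. Abcb1a lay at 6.11, 6.07 and 5.63 with DMSO and at 6.95, 7.19 and 6.70 with GW4064. Like Shank2 it had its lowest DMSO value in replicate 3, as Otud1 had too, and its highest GW4064 value in replicate 2. Slc25a47 and Otud1 were highest in GW4064 replicate 1, like Wipf3. Wipf3 and Shank2 stood 0.277 from each other, which made Shank2 the 5th closest gene to Wipf3 and Wipf3 the 19th closest to Shank2. Without the block limma did not call Abcb1a, Otud1 or Glyctk (adjusted p = 0.123, 0.122 and 0.0529), and with it adjusted p was 0.0374 for each. B4galt5 and Slc25a47 were called without the block (limma adjusted p = 0.0177 and 0.03435) but not with it (0.0570 and 0.0618). Abcb4 was called in both fits (0.03435 and 0.0374).

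**Figure D4:**
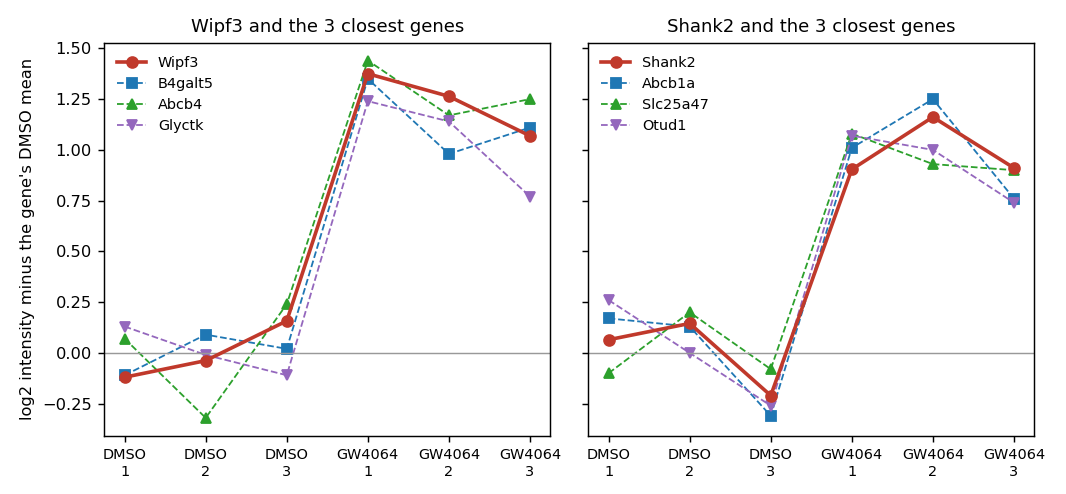
Log2 intensity minus the gene's own DMSO mean (vertical axis) in each of the 6 arrays (horizontal axis) for Wipf3 with its 3 closest genes and for Shank2 with its 3 closest genes. Lines only connect the points of a gene. All 8 genes are above their DMSO mean in the 3 GW4064 arrays, and Shank2, Abcb1a and Otud1 have their lowest value in DMSO replicate 3, as does Glyctk in the Wipf3 panel.

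Wipf3 is best known from brain and testis, and Shank proteins from synapses. Markers of neurons and of other liver cells were therefore read in the same arrays. The mean level of 6 neuronal markers was 3.86 to 4.08 with DMSO and 3.91 to 4.08 with GW4064. Limma called none, where 0.0496% of all genes were called. At this share, the absence of a call in lists as short as this and those below says little about their genes. The brightest, Rbfox3, had a log2 change of -0.07. Of 7 endothelial and 8 stellate cell and fibroblast markers limma called none, and the brightest, Cdh5 and Acta2, had changes of 0.11 and -0.01. All 4 measured cholangiocyte markers of 6 listed were above 0, with a median change of 0.11, and limma called none. Their summed linear intensity was 198 to 254 with DMSO and 245 to 343 with GW4064. The brightest, Sox9, weighs most in that sum, which is therefore no separate sign. Sox9 lay at 7.31 ± 0.25 and 7.76 ± 0.30 (log2 change 0.45, limma adjusted p = 0.858). Krt19, Krt7 and Epcam had log2 changes of 0.11, 0.11 and 0.05. At an unadjusted p under 0.05, against 5.66% of all genes, there was 1 cholangiocyte marker, Sox9, and 1 haematopoietic marker, Coro1a, with a log2 change of -0.26 (limma adjusted p of 0.824). Coro1a is named after its value was seen. None of the neuronal, endothelial, stellate or hepatocyte markers was under 0.05. No probe set is at 0 on this scale, and there is no detection call. The marker levels alone do not show whether neurons or other non-hepatocyte cells are present. A part of such cells in the Wipf3 and Shank2 values was not tested. Of the 9 hepatocyte markers measured, 3 were above 0 and limma called none.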

How the data were processed

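RMA was run by the authors and Partek was used as well, per the submitters' processing notes, which give no versions. What they deposited is 1 log2 intensity per probe set and array, with the log base taken here from the range of the values. The genome build behind the array annotation is not given, and coordinates are those of the RefSeq promoter table. Of 41345 probe sets, 23521 have 1 symbol, 1814 several and 16010 none, and the brightest per gene was kept. All 8 genes matched RefSeq by Entrez identifier.

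GW4064 was compared with DMSO in limma 3.58.1 (R 4.3.3), with group as the only term and Benjamini-Hochberg adjustment over 22180 genes at a threshold of 0.05. With 3 arrays per group an exact permutation p stays at or above 0.1, so none was used. The number of arrays limits the precision.

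Replicate numbers come from the titles. Deviations from the group means correlated at 0.26, 0.34 and 0.45 within numbers 1, 2 and 3, above the 0.1 asked for, so a fit with the number as a block is given as well. Named genes are the 8, the FXR targets Abcb11 and Nr0b2, the 3 of smallest p in each list, the 3 closest in pattern and the brightest of each marker list. The genes and lists were chosen with earlier results of these data known.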

Additional observations from a re-analysis of the deposited data

How the results depend on the processing

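The alternatives were the replicate block, quantile normalization, median centring, filters on dim genes, averaged probe sets, a trend in the prior variance, and arrays or pairs left out. The block changed no call among the 8 genes. The count of raised genes was 2 to 5 with single arrays left out, 2, 4 and 2 without pairs 1, 2 and 3, and with the block 6 without pair 2 and 4 without pair 3. The count of lowered genes, 0 in the report, was 2 with the replicate block, 3 with the block and without pair 1, 1 without genes under the median level, 1 with the trend, and 0 to 1 with single arrays left out. The Wipf3 call was lost in 10 of 19 alternatives. Its log2 change was 1.17 to 1.32 with single arrays left out, 1.11, 1.20 and 1.40 without pairs 1, 2 and 3 (adjusted p = 0.531, 0.227 and 0.0653), and the same 3 changes with the block and without those pairs (0.0533, 0.217 and 0.0748). The Shank2 call was lost in 12 of 19. Its change was 0.89 to 1.06 with single arrays left out, 1.07, 0.98 and 0.93 without pairs 1, 2 and 3 (adjusted p = 0.731, 0.234 and 0.441), 0.98 and 0.93 with the block and without pairs 2 and 3 (0.179 and 0.278), and 0.99 without genes under the 25th percentile (0.0515). No alternative turned the sign of Wipf3 or Shank2. Settings with arrays or pairs left out hold fewer samples. The cause of the lost calls was not tested in any setting. Of the other 6 genes none was called in any alternative. The sign turned for Wipf1 without pair 3 (0.004, and the same with the block), for Was without DMSO replicate 3 (-0.03) and GW4064 replicate 1 (-0.09), with -0.09 to 0.165 over single arrays left out, and for Wasl without GW4064 replicate 1 (0.005), with -0.11 to 0.005. No member of the 3 lists was called in any alternative, where 2 to 16 of all genes were called raised and 0 to 3 lowered. The number above 0 among the actin filament genes moved from 15 to between 7 and 24 with single arrays left out, and among the Shank partners from 9 to between 6 and 14. The Shank1 change was -0.18 to -0.04 and the Shank3 change -0.27 to -0.08 with single arrays left out.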
